A study of Mus musculus with 12 samples.

Results

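The Frizzled receptors of the mouse are encoded by 10 genes, *Fzd1* to *Fzd10*, which were found by symbol among the 49315 genes of the count files. Each had 1 Ensembl identifier, and all 10 passed the filter on low counts that left 16637 genes for testing. They were measured by RNA-seq of endothelial cells sorted as CD31+, CD140b-, CD45- and 7AAD- from the forebrains of E15.5 embryos, with 1 embryo per library. The 3 genotypes, of 4 embryos each, were wild type (WT), *Gpr124 ΔC/ΔC*, in which a V5 tag and a stop codon replace the intracellular domain of GPR124, and *Gpr124-/-*, homozygous for a null allele. Both mutations are carried by every cell of the embryo and not by endothelium alone. The study also found less of the truncated protein than of the wild-type one, so *Gpr124 ΔC/ΔC* combines loss of the domain with less receptor. GPR124, encoded by *Adgra2*, is an adhesion receptor of brain endothelium that cooperates with RECK to present WNT7 ligands to Frizzled.

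Frizzled proteins are receptors with an extracellular cysteine-rich domain that binds WNT and an intracellular face that recruits Dishevelled. Together with the co-receptors LRP5 and LRP6 they stabilize β-catenin, and other Frizzled proteins act with the planar polarity proteins without it. In brain and retinal vessels FZD4 is known as the receptor for Norrin and as a receptor for WNT7, and β-catenin signaling there maintains the blood-brain barrier.

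The comparisons address whether the intracellular domain of GPR124 is needed for WNT signaling in these vessels, which has been linked to adaptor proteins with PDZ domains that can bridge the tails of GPR124 and Frizzled. The last 33 coding bases of *Adgra2*, of the 4 receptors that end like it, and of *Fzd6* and *Fzd10*, which do not and which changed in *Gpr124-/-*, are therefore shown 5′ to 3′ on the coding strand, with the 4 codons before the stop codon in capitals. Each was read from the GENCODE vM21 transcript with the longest coding sequence and lies in the last coding exon, and positions are those of GRCm38.
*Adgra2* (chr8:27122003-27122035, plus strand): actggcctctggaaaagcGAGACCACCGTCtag
*Fzd4* (chr7:89408328-89408360, plus strand): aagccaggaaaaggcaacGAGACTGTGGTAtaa
*Fzd1* (chr5:4755652-4755684, minus strand): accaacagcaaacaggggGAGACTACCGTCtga
*Fzd2* (chr11:102606412-102606444, plus strand): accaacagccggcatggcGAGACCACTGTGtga
*Fzd7* (chr1:59484646-59484678, plus strand): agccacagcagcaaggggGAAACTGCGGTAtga
*Fzd6* (chr15:39036522-39036554, plus strand): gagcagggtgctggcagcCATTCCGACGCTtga
*Fzd10* (chr5:128602934-128602966, plus strand): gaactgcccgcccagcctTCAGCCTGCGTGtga

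The final codons were searched on the coding strand for ACNNNNGTN just before the stop codon. This is a threonine codon, any codon and a valine codon, a form of tail bound by many PDZ domains. *Fzd1*, *Fzd2*, *Fzd4* and *Fzd7* held it, as did *Adgra2*, whereas *Fzd3*, *Fzd5*, *Fzd6*, *Fzd8*, *Fzd9* and *Fzd10* did not. Of 21457 protein-coding genes, 168 (0.783%) held these letters. The match describes the sequence and is not a measurement of binding. The search took threonine only, so *Fzd5*, which ends in a serine, a histidine and a valine codon, was counted as without the match.

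The libraries held 13877572 to 22551163 reads assigned to genes. In *Gpr124-/-*, *Adgra2* had 4.86 ± 0.988 TPM (transcripts counted per length and scaled to a common total; SD, n = 4) against 38.6 ± 10.4 in WT and 43.4 ± 13.7 in *Gpr124 ΔC/ΔC*, where the mRNA cannot check the label. A single small RNA gene, *Gm23935*, took 12.5% of all TPM in WT embryo JE6 and 14.1% in *Gpr124 ΔC/ΔC* embryo JE3, against 1.22% to 3.04% in the other 10, so every other TPM value of these libraries is scaled down. Summed TPM of 8 endothelial markers ran from 4310 to 5480 in WT, 3650 to 5880 in *Gpr124 ΔC/ΔC* and 4280 to 5270 in *Gpr124-/-*, where 2 of the 8 were higher and 2 lower than in WT. Each embryo label starts with a letter (J, K, L or M) of unstated meaning. J holds 2 WT and 2 *Gpr124 ΔC/ΔC* embryos, L holds 1 and 2, K holds 1 WT and 1 *Gpr124-/-* embryo, and M holds 3 *Gpr124-/-* embryos.

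In WT endothelium *Fzd6* was the most abundant Frizzled mRNA, followed by *Fzd4* and *Fzd1*. TPM is scaled by gene length, so levels can be set side by side between genes, with a limit for 3 members. The length used equals that of the longest GENCODE vM21 coding transcript in 7 of 10 members, *Fzd5* included, but is shorter for *Fzd3* (4227 against 12734 bases), *Fzd8* (3346 against 5974) and, by little, *Fzd6* (4134 against 4325), all of which would stand lower with the longer length at the same read counts. *Fzd6*, a receptor mostly known from planar polarity, stood at 205 ± 14.9 TPM (SD, n = 4), which ranked 833rd of 21811 protein-coding genes. *Fzd4* was at 50.3 ± 9.66 and *Fzd1* at 27.2 ± 4.24 TPM, and the ranges of these 3 genes did not overlap. *Fzd3*, known with *Fzd6* from axon guidance and hair patterning, was at 8.86 ± 1.49 TPM, below *Fzd1* in all 4 embryos. *Fzd9* (4.81 ± 3.91), *Fzd10* (3.73 ± 1.86) and *Fzd8* (2.55 ± 0.966) came next. Neighbours in this order had overlapping ranges from *Fzd3* to *Fzd8*, so the order of neighbours is not resolved beyond the spread between embryos. *Fzd10* exceeded *Fzd8* in all 4. At the length used, *Fzd3* (6.69 to 9.99 TPM) was apart from *Fzd10* (2.06 to 5.69) and *Fzd8* (1.67 to 3.72). Below *Fzd8*, and apart from it at the length used, *Fzd2* (1.04 ± 0.32), *Fzd7* (1.02 ± 0.604) and *Fzd5* (0.358 ± 0.159 TPM) were lowest, again with overlapping neighbours. *Fzd5* rested on 10 to 31 reads in a WT library, where counting error is large.

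**Figure D1:**
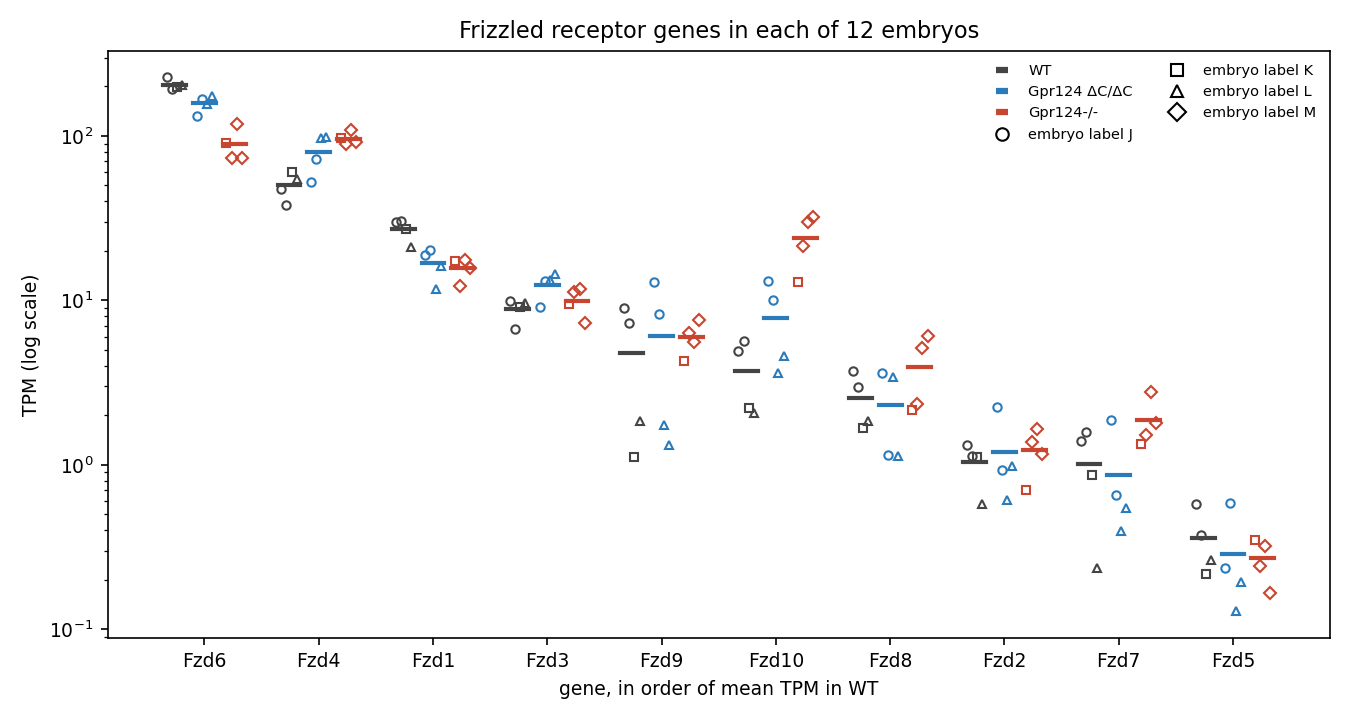
TPM on a log axis of each Frizzled gene in each embryo, with marks shaped by label letter and a bar at the genotype mean (WT grey, *Gpr124 ΔC/ΔC* blue, *Gpr124-/-* red). *Fzd6* falls from a mean of 205 TPM in WT to 89 in *Gpr124-/-* while *Fzd4* goes from 50.3 to 96.4, and *Fzd9* divides by letter within WT and *Gpr124 ΔC/ΔC*.

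In *Gpr124-/-*, 4 of the receptor mRNAs changed. *Fzd6* fell 2.39-fold and *Fzd1* 1.8-fold, while *Fzd4* rose 1.87-fold and *Fzd10* 6.19-fold, and the other 6 did not pass the test. Thus 2 of 10 members rose, where 10.5% of all genes tested did, and 2 fell, against 9.32% of all genes.

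*Fzd6* was at 227 (JE1), 193 (JE6), 198 (KE8) and 203 TPM (LE6) in WT, and at 90.2 (KE4), 73.8 (ME1), 118 (ME4) and 73.6 TPM (ME5) in *Gpr124-/-*. Every *Gpr124-/-* embryo was below every WT embryo, with ME4 nearest to them. The log2 fold change was -1.26 (SE 0.125, adjusted p = 1.36e-05, quasi-likelihood test of edgeR, adjusted by Benjamini-Hochberg over all 16637 genes). *Fzd4* was at 47.9, 38.0, 60.4 and 55.0 TPM in the WT embryos in the same order, and at 97.3, 89.2, 108 and 91.3 TPM in *Gpr124-/-*. Here every *Gpr124-/-* embryo was above every WT embryo. Its log2 fold change was 0.90 (SE 0.143, adjusted p = 0.0006, edgeR).

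*Fzd1*, which encodes a receptor that signals through β-catenin, was at 29.9, 30.5, 27.1 and 21.2 TPM in WT and at 17.3, 12.2, 17.6 and 15.8 TPM in *Gpr124-/-*. The genotypes again did not overlap, and LE6 was the lowest WT embryo. The log2 fold change was -0.85 (SE 0.208, adjusted p = 0.0114, edgeR). *Fzd10*, the closest relative of *Fzd9* and a receptor of the β-catenin branch, was at 4.94, 5.69, 2.22 and 2.06 TPM in WT and at 13.0, 21.4, 29.8 and 32.3 TPM in *Gpr124-/-*. The lowest *Gpr124-/-* embryo, KE4, was above the highest WT embryo. Its log2 fold change was 2.63 (SE 0.514, adjusted p = 0.00273, edgeR), the largest among the 10 genes.

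For each of these 4 genes an exact permutation test of the TPM values, two-sided, returned p = 0.0286, the smallest that 4 against 4 embryos allow, in a family of 30 such tests (10 genes in 3 comparisons). The TPM ranges of *Gpr124-/-* and WT were apart for 4 of 10 members, against 20.3% of all genes tested. Under the study's stricter thresholds, which add an absolute log2 fold change above 1, *Fzd10* was higher and *Fzd6* lower, where 5.67% and 4.21% of all genes were. The median absolute log2 fold change was 0.69 over the 10 members and 0.27 over all genes tested. The member median lies between *Fzd8* (0.58, SE 0.481) and *Fzd7* (0.80, SE 0.573), which have few reads and did not pass. It is therefore partly counting error and not a measure of change in the family.

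The remaining 6 receptors gave log2 fold changes from -0.47 (*Fzd5*, SE 0.466) to 0.80 (*Fzd7*, SE 0.573), with adjusted p from 0.393 to 0.872 (edgeR). *Fzd3* was the best measured of them, with 185 to 329 reads in WT libraries and a log2 fold change of 0.13 (SE 0.161). *Fzd7* ranged from 0.235 to 1.58 TPM in WT and from 1.34 to 2.77 in *Gpr124-/-*, and *Fzd8* reached 3.72 TPM in WT and 6.12 in *Gpr124-/-*. These ranges overlapped, and the standard errors leave room for changes as large as those of *Fzd1* and *Fzd4* in either gene. *Fzd2*, *Fzd8* and *Fzd9* had log2 fold changes of 0.20, 0.58 and 0.24 with standard errors of 0.45, 0.481 and 0.747.

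The 4 changes were compared within the label letter K, which holds 1 embryo of each genotype. KE4 over KE8 gave a CPM (counts scaled by TMM library size) ratio of 0.44 for *Fzd6*, 1.56 for *Fzd4*, 0.618 for *Fzd1* and 5.68 for *Fzd10*, in the same directions as over all embryos. KE8 had the highest summed fibroblast (68.5 TPM) and pericyte markers (65.4 TPM) of the WT embryos. KE4 had the highest summed macrophage markers (17.5 TPM) of the *Gpr124-/-* embryos. With the letter as a term in the model, which rests the comparison on this pair of single embryos and takes the spread from the other groups, *Fzd6* (adjusted p = 0.0125) and *Fzd10* (0.00176) passed the test, whereas *Fzd4* (0.0651) and *Fzd1* (0.189) did not (edgeR). In bulk samples, fewer cells of a type and less RNA per cell cannot be told apart.

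Summed erythroid and neuronal markers were higher in *Gpr124-/-* than in WT, while the sums of the other lists overlapped. Of all genes tested, 10.5% were higher and 9.32% lower. Summed TPM of 7 erythroid genes was 7010 to 11800 in WT and 17800 to 54200 in *Gpr124-/-*, with 5 of 7 higher. Summed TPM of 7 neuronal genes was 58.8 to 137 in WT and 138 to 191 in *Gpr124-/-*, with 2 of 7 higher. Of 8 neural progenitor genes, 7 were tested and none passed, at 26.3 to 45 and 35.8 to 48.2 TPM summed. Pericyte genes (27.6 to 65.4 and 32.9 to 40.5 TPM over 7 genes, 1 higher and 1 lower) and fibroblast genes (12.7 to 68.5 and 12.5 to 15.2 over 6 genes, 1 lower) were highest in WT embryo KE8. Macrophage genes (1.36 to 3.95 and 0.237 to 17.5 over 7 genes) were highest in KE4, and no marker of any list was at 0 in all embryos of a genotype. With the erythroid genes left out of the fit, 2 receptors rose and 2 fell as before. Dropping those 7 genes keeps the reads of each receptor as they were, so it cannot show the part of erythroid cells. The part of other cell types, erythroid cells included, in these differences was not tested.

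**Figure D2:**
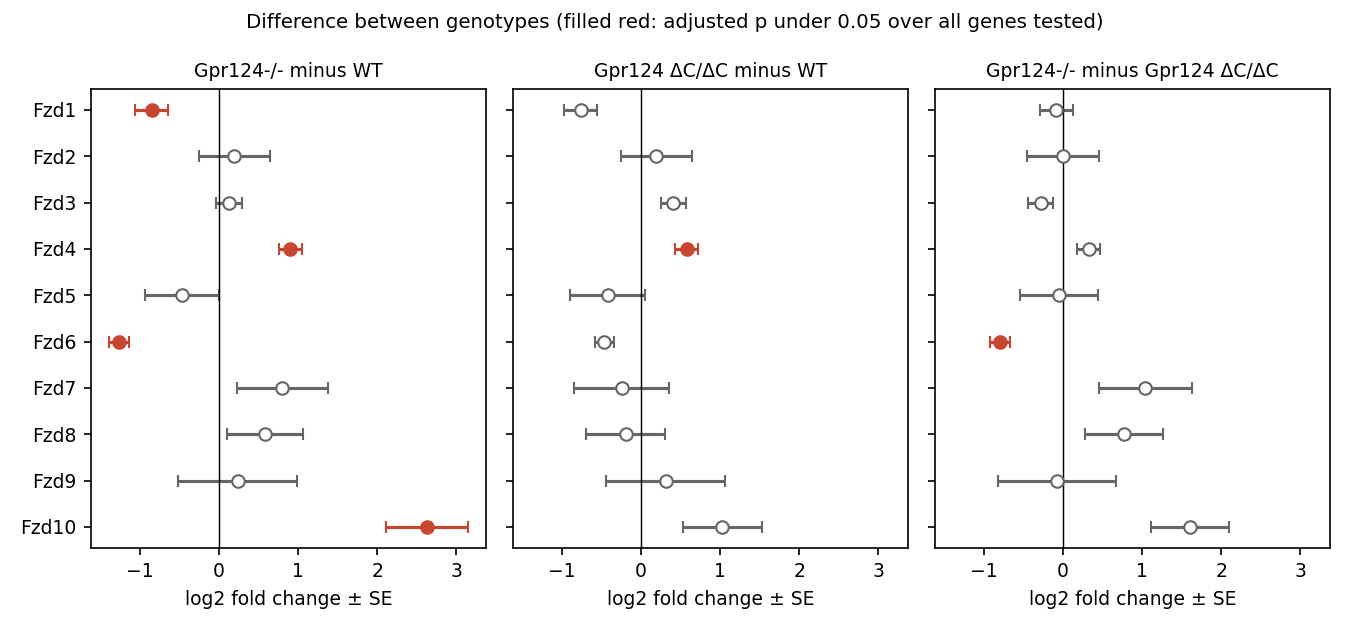
Log2 fold change with its standard error for each Frizzled gene in the 3 comparisons, with filled red marks for genes that passed the test. *Fzd1*, *Fzd4*, *Fzd6* and *Fzd10* are filled in *Gpr124-/-* minus WT, *Fzd4* in *Gpr124 ΔC/ΔC* minus WT, and *Fzd6* in *Gpr124-/-* minus *Gpr124 ΔC/ΔC*.

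In *Gpr124 ΔC/ΔC*, *Fzd4* alone passed the test, rising 1.49-fold over WT. It was at 52.4 (JE3), 72.3 (JE4), 97.3 (LE2) and 98.4 TPM (LE5). JE3 lay within the WT range, whereas both L embryos reached the *Gpr124-/-* level on TPM. On CPM the L embryos, at 206 and 212, were just below the lowest *Gpr124-/-* embryo (ME1 at 216). The log2 fold change was 0.58 (SE 0.142, adjusted p = 0.038, edgeR), and the exact permutation p on TPM was 0.0857. The call was lost without JE1, JE6, LE6, LE2, LE5, KE4, ME1 or ME4, each left out in turn (adjusted p from 0.0501 to 0.13), and in a fit of these 2 genotypes alone (0.0704, edgeR). Of all genes tested, 1.85% were higher and 2.24% lower, against 1 and 0 of the 10 members. No member passed the stricter thresholds, which 1.92% of all genes did. Summed TPM of the 7 pericyte genes was 13.9 to 31.4 in *Gpr124 ΔC/ΔC* against 27.6 to 65.4 in WT, with none of the 7 passing the test, and the erythroid (5450 to 9890 TPM) and neuronal sums (83 to 158) overlapped those of WT. The part of other cells in these differences was not tested.

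*Fzd6* was at 132 (JE3), 168 (JE4), 156 (LE2) and 176 TPM (LE5) in *Gpr124 ΔC/ΔC*, all below the lowest WT embryo and above the highest *Gpr124-/-* embryo. Its log2 fold change against WT was -0.46 (SE 0.123, adjusted p = 0.0574, edgeR), which missed the threshold. *Fzd1* was at 18.8, 20.4, 11.7 and 16.3 TPM in these embryos, also below every WT embryo, with a log2 fold change of -0.76 (SE 0.208, adjusted p = 0.0634, edgeR). The exact permutation p on TPM was 0.0286 for both genes, and 2 of 10 members had ranges apart from WT, against 8.85% of all genes tested. On CPM, *Fzd6* alone was apart from WT, and on TPM recomputed without *Gm23935*, chosen after seeing the data, *Fzd6* and *Fzd3* were (both p = 0.0286, exact permutation test). *Fzd1* passed edgeR's test without LE6 (adjusted p = 0.0422) or JE3 (0.0396), and *Fzd6* without ME4 (0.0112) or ME5 (0.0467).

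*Fzd10* was at 13.1, 10.1, 3.64 and 4.58 TPM in *Gpr124 ΔC/ΔC*. The J embryos were above and the L embryos within the WT range. Over all embryos its log2 fold change was 1.03 (SE 0.503, adjusted p = 0.39, edgeR). Within letter J, *Gpr124 ΔC/ΔC* over WT gave a CPM ratio of 2.13 for *Fzd10*, and within L 1.86. The ratios within J and L were 1.39 and 1.66 for *Fzd4*, 0.626 and 0.616 for *Fzd1*, and 0.69 and 0.761 for *Fzd6*. With the letter as a term *Fzd4* (adjusted p = 0.00358), *Fzd10* (0.00907) and *Fzd1* (0.012) passed and *Fzd6* (0.0572) did not (edgeR). In a fit of the J and L embryos alone with this term, chosen after seeing the data, the adjusted p of the same 4 genes was 0.00302, 0.0129, 0.0084 and 0.00514 (edgeR). *Fzd3*, at 9.08 to 14.4 TPM against 6.69 to 9.99 in WT, gave a log2 fold change of 0.41 (SE 0.161, adjusted p = 0.231, edgeR).

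Between the mutants, *Fzd6* was 1.73-fold lower in the null genotype, with no overlap of the embryos (log2 fold change -0.79, SE 0.124, adjusted p = 0.00209, edgeR). This was the only member to pass, and 3.89% of all genes tested were lower and 4.93% higher. Ranges were apart for 1 of 10 members and 11.5% of all genes, and no member passed the stricter thresholds, against 4.6%. *Fzd10* was 3.03-fold higher in *Gpr124-/-* (log2 fold change 1.60, SE 0.492, adjusted p = 0.0643, edgeR), with KE4 at 13.0 beside JE3 at 13.1 TPM, and it passed without either of them (adjusted p = 0.0353 and 0.0247, edgeR). *Fzd4* differed by 0.32 (SE 0.142, adjusted p = 0.191, edgeR) and *Fzd1* by -0.08 on the log2 scale (SE 0.208). On CPM *Fzd4* was apart between the mutants, higher in *Gpr124-/-* (p = 0.0286, exact permutation test), while on TPM it overlapped. No label letter holds both mutants, so with the letter as a term they are compared only through WT embryos that share a letter with each. The log2 fold change of *Fzd6* was then -0.70 (adjusted p = 0.394, edgeR), close in size to that without the term. Markers of some other cells differed between the mutants. Summed TPM of the 7 erythroid genes was 17800 to 54200 in *Gpr124-/-* against 5450 to 9890 in *Gpr124 ΔC/ΔC*, with 6 of 7 higher, and that of the 7 pericyte genes 32.9 to 40.5 against 13.9 to 31.4, with 2 of 7 higher. Neuronal sums (138 to 191 against 83 to 158 TPM) overlapped, with 2 of 7 genes higher, and of the 8 endothelial markers 1 was higher and 2 were lower. No fibroblast, neural progenitor or macrophage gene that was tested passed, and the part of other cells in these differences was not tested. The comparisons share embryos, so their values are set side by side and not counted as separate evidence.

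**Figure D3:**
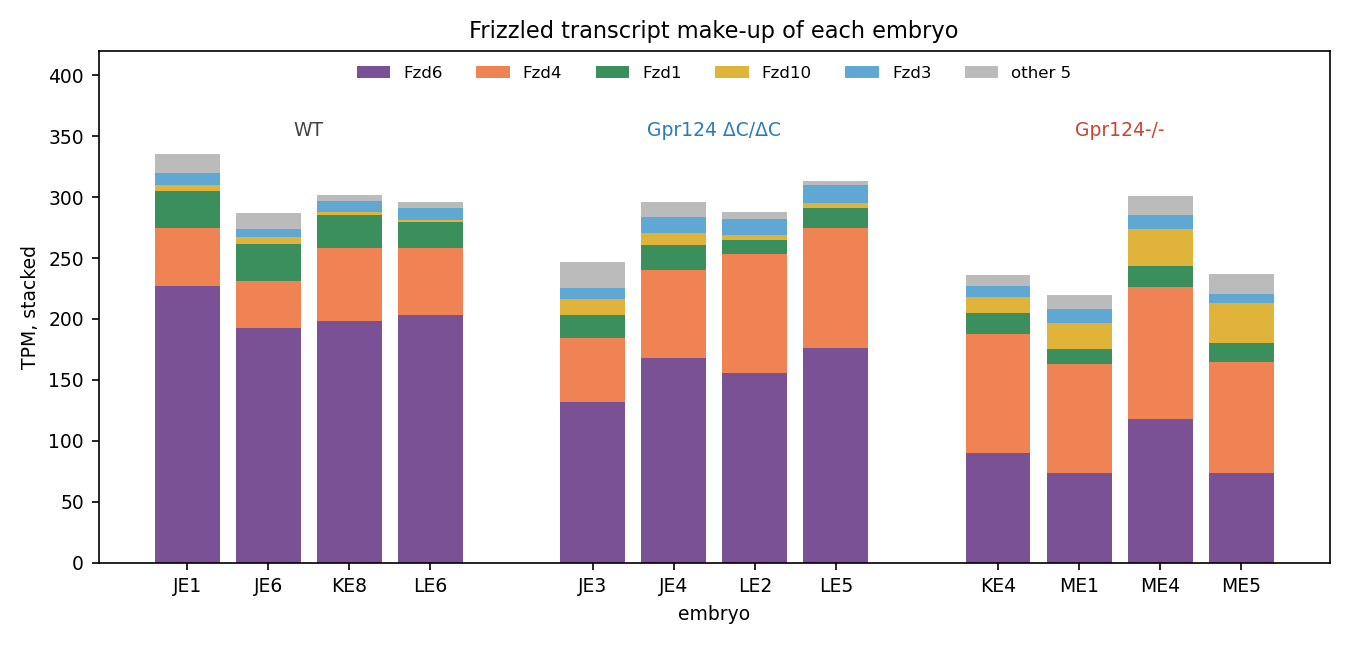
TPM of the Frizzled genes stacked for each embryo, in the order of genotype. *Fzd6* takes 65.7% to 68.6% of the stack in WT, 53.7% to 56.9% in *Gpr124 ΔC/ΔC* and 31.0% to 39.3% in *Gpr124-/-*, where *Fzd4* and *Fzd10* take more.

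The make-up of the family differed between the genotypes. Summed Frizzled TPM was 305 ± 20.9 (SD, n = 4) in WT, 286 ± 28.0 in *Gpr124 ΔC/ΔC* and 248 ± 35.9 in *Gpr124-/-*, where ME4 at 301 lay within the WT range. *Fzd6* made up 67.3% ± 1.2 of this sum in WT, 55.2% ± 1.53 in *Gpr124 ΔC/ΔC* and 35.5% ± 3.9 in *Gpr124-/-*. The share of *Fzd4* was 16.5% ± 3.29, 27.7% ± 5.89 and 39.1% ± 2.4 in the same order, and that of *Fzd10* was 1.22% ± 0.619, 2.86% ± 1.9 and 9.69% ± 3.3. For *Fzd6* and *Fzd4* the 3 genotypes did not overlap in share.

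Within an embryo the ratio of *Fzd6* to *Fzd4* TPM is free of library scaling. It was 4.74 (JE1), 5.07 (JE6), 3.29 (KE8) and 3.69 (LE6) in WT, 2.53 (JE3), 2.33 (JE4), 1.6 (LE2) and 1.78 (LE5) in *Gpr124 ΔC/ΔC*, and 0.928 (KE4), 0.828 (ME1), 1.1 (ME4) and 0.806 (ME5) in *Gpr124-/-*. All *Gpr124 ΔC/ΔC* embryos thus lay between the other genotypes, and *Fzd4* exceeded *Fzd6* in 3 of 4 *Gpr124-/-* embryos and in no other. Within J the *Gpr124 ΔC/ΔC* values were below those of WT, as they were within L, and KE4 was below KE8. The ratio pairs a receptor that fell with another that rose in these same data, so its order adds no separate evidence. *Fzd4* alone, at 52.4 to 98.4 TPM in *Gpr124 ΔC/ΔC*, overlapped both other genotypes. The 4 receptors whose coding sequence ends in the threonine and valine form shown above held 26.1% ± 2.47 of the summed TPM in WT, 34.4% ± 3.79 in *Gpr124 ΔC/ΔC* and 46.6% ± 2.6 in *Gpr124-/-*. *Fzd4* supplied most of that share, and *Fzd1*, of the same form, fell in *Gpr124-/-*. These shares are descriptions without a test.

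*Fzd9*, a receptor expressed by neural progenitors, divided by label letter within WT and within *Gpr124 ΔC/ΔC*. It was at 8.96 and 7.33 TPM in the WT embryos of letter J and at 12.9 and 8.28 TPM in the *Gpr124 ΔC/ΔC* embryos of J, against 1.12 (KE8) and 1.86 (LE6) in WT and 1.75 (LE2) and 1.33 TPM (LE5) in *Gpr124 ΔC/ΔC*. The J embryos did not overlap the others, with a mean 6.18 times as high. *Gpr124-/-* embryos ran from 4.3 to 7.64 TPM, above the K and L embryos of the other genotypes and overlapping the J embryos at JE6. Within K, KE4 over KE8 gave a CPM ratio of 3.73, and with the letter as a term the log2 fold change of *Fzd9* in *Gpr124-/-* against WT was 1.89 (adjusted p = 0.0641, edgeR) in place of 0.24. Summed neural progenitor markers overlapped between the same 2 sets, at 30.5 to 46.9 TPM in J and 25.4 to 43.5 TPM in K and L. The part of other cells in this division by letter was not tested.

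The ratio of J to K and L embryos among WT and *Gpr124 ΔC/ΔC* was 2.7 for *Fzd10*, 2.69 for *Fzd7*, 2.2 for *Fzd5*, 1.72 for *Fzd2*, 1.42 for *Fzd8* and 1.3 for *Fzd1*. *Fzd6* (0.983), *Fzd3* (0.838) and *Fzd4* (0.677) were below 1. The GC content of the longest coding transcript was 40.3% to 47.4% in these last 3 genes and 51.7% to 62.2% in the other 7. The part of base composition in the division by letter was not tested. Since *Gpr124-/-* embryos carry the letters K and M and WT embryos J, K and L, the letters are spread unequally over the genotypes compared.

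**Figure D4:**
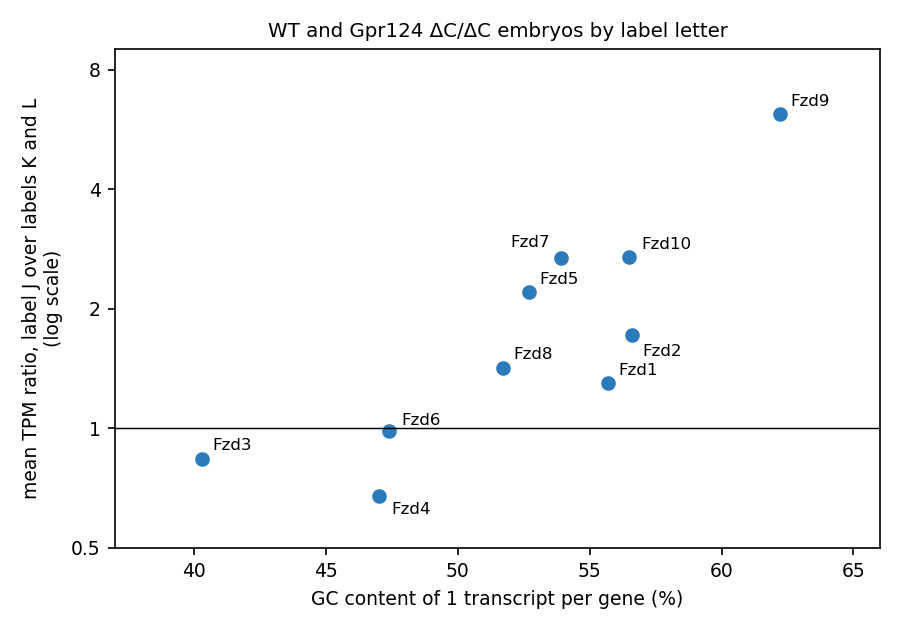
For each Frizzled gene, the mean TPM of the 4 J embryos over that of the 4 K and L embryos of WT and *Gpr124 ΔC/ΔC* (log axis) against the GC content of its longest coding transcript. *Fzd9* has the highest ratio at 6.18, and the 3 genes with a GC content of 47.4% or less have ratios from 0.677 to 0.983.

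Some members resemble each other in sequence, which could move reads between them in counting. The coding sequences of *Fzd1* and *Fzd2* were 80.9% identical with a longest exact shared stretch of 47 bases, *Fzd1* and *Fzd7* 78.1% (47 bases), *Fzd2* and *Fzd7* 77.8% (38 bases), *Fzd5* and *Fzd8* 76% (29 bases), and *Fzd9* and *Fzd10* 70% (24 bases). *Fzd6* was at most 62.9% identical to another member, its partner *Fzd3*. *Fzd5* shares 17.8% of its exon bases with *Gm38058* on the opposite strand, which had 0 to 3 reads in a library, and how the counting treated strand is not given in the sources used here. The lengths given for *Fzd3*, *Fzd6* and *Fzd8* are shorter than those of their longest GENCODE vM21 coding transcripts, on which these genes were not recounted.

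The genes that act with the Frizzled receptors were read from lists by role, with the same test and the same background of all genes. In *Gpr124-/-* 10.5% of all genes tested were higher and 9.32% lower than in WT, and in *Gpr124 ΔC/ΔC* 1.85% and 2.24%. Among 20 WNT ligands and Norrin, 7 passed the filter and *Wnt5a*, a ligand of the branch without β-catenin, was the only one to change. In *Gpr124-/-* it fell by 3.32 (log2) (SE 0.203, adjusted p = 3.44e-07, edgeR) and by 2.48 in *Gpr124 ΔC/ΔC* (SE 0.194, adjusted p = 2.14e-05, edgeR), from 10 ± 1.71 TPM in WT to 1.03 ± 0.1 and 1.9 ± 0.511. *Wnt7a* (0.656 TPM in WT), *Wnt7b* (1.7) and *Ndp*, which encodes Norrin (1.18), were low in these cells and did not pass in either mutant.

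Of 9 co-receptors, 8 were tested. *Adgra2* (log2 fold change -3.05) and *Ror1*, a WNT5A receptor (-1.76), fell and *Ptk7*, a planar polarity co-receptor (0.88), rose in *Gpr124-/-*, with adjusted p of 1.35e-05, 0.0076 and 0.0252 (edgeR). *Reck* (22.2 ± 2.56 TPM in WT), *Lrp6* (13.9 ± 2.39), *Lrp5* (4.2 ± 2.21) and *Tspan12*, the tetraspanin partner of FZD4 (91.2 ± 9.78), did not pass in either mutant. The log2 fold change of *Tspan12* in *Gpr124-/-* was 0.23 (SE 0.141), beside 0.90 for *Fzd4*. No co-receptor passed in *Gpr124 ΔC/ΔC*.

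Genes of receptor turnover bear on Frizzled protein, which was not measured. *Znrf3*, a ubiquitin ligase that removes Frizzled from the surface and is itself a WNT target, fell by 1.11 (log2) in the null embryos (adjusted p = 0.0126, edgeR). *Lgr4*, an R-spondin receptor that restrains such ligases, rose by 3.07 (adjusted p = 0.00535, edgeR) from 0.189 ± 0.217 to 1.62 ± 0.365 TPM. Of the 11 genes in this list 5 were tested, and none passed in *Gpr124 ΔC/ΔC*. Among 5 secreted relatives of the Frizzled ectodomain, 3 were tested and *Frzb* fell in both mutants, by 5.07 (adjusted p = 1.28e-06) and 4.07 (3.33e-05, edgeR), from 17.6 ± 4.27 TPM in WT to 0.542 ± 0.243 in *Gpr124-/-* and 1.12 ± 0.531 in *Gpr124 ΔC/ΔC*.

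Inside the cell, none of 9 transducers passed in any comparison, and their median log2 fold change in *Gpr124-/-* was 0.06 beside -0.01 over all genes tested. *Smo*, the related receptor of Hedgehog signaling, did not pass either (0.22, adjusted p = 0.582, edgeR). Of 7 planar polarity partners, *Prickle2* rose in *Gpr124-/-* (1.32, adjusted p = 3.48e-05) and in *Gpr124 ΔC/ΔC* (0.58, 0.0447, edgeR). *Celsr1*, an atypical cadherin named here because it was the other of 2 to rise in *Gpr124 ΔC/ΔC*, changed by 1.32 (log2) there (adjusted p = 0.0455, edgeR). Of 3 adaptors with PDZ domains, *Dlg4* rose (1.11, adjusted p = 0.00812), *Magi3* fell (-0.58, adjusted p = 0.028) and *Dlg1* did not pass (0.20, adjusted p = 0.603) in *Gpr124-/-* (edgeR), with none passing in *Gpr124 ΔC/ΔC*.

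All 9 transcriptional targets fell in *Gpr124-/-*, with a median log2 fold change of -2.14. In *Gpr124 ΔC/ΔC* 5 of the 9 fell, and the median over all 9 was -1.35. In *Gpr124-/-* and *Gpr124 ΔC/ΔC* in turn, the log2 fold changes were -3.88 and -4.41 for *Notum*, an enzyme that inactivates WNT, -3.77 and -2.49 for *Nkd1*, and -2.14 and -1.43 for *Sp5*, with adjusted p from 1.45e-05 to 0.0334 (edgeR). *Apcdd1* fell by 3.61 in *Gpr124-/-*, and in *Gpr124 ΔC/ΔC* its log2 fold change was -1.71 (adjusted p = 0.0804, edgeR). Several of these targets were known from the study to respond in these samples, so their direction is not independent evidence.

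**Figure D5:**
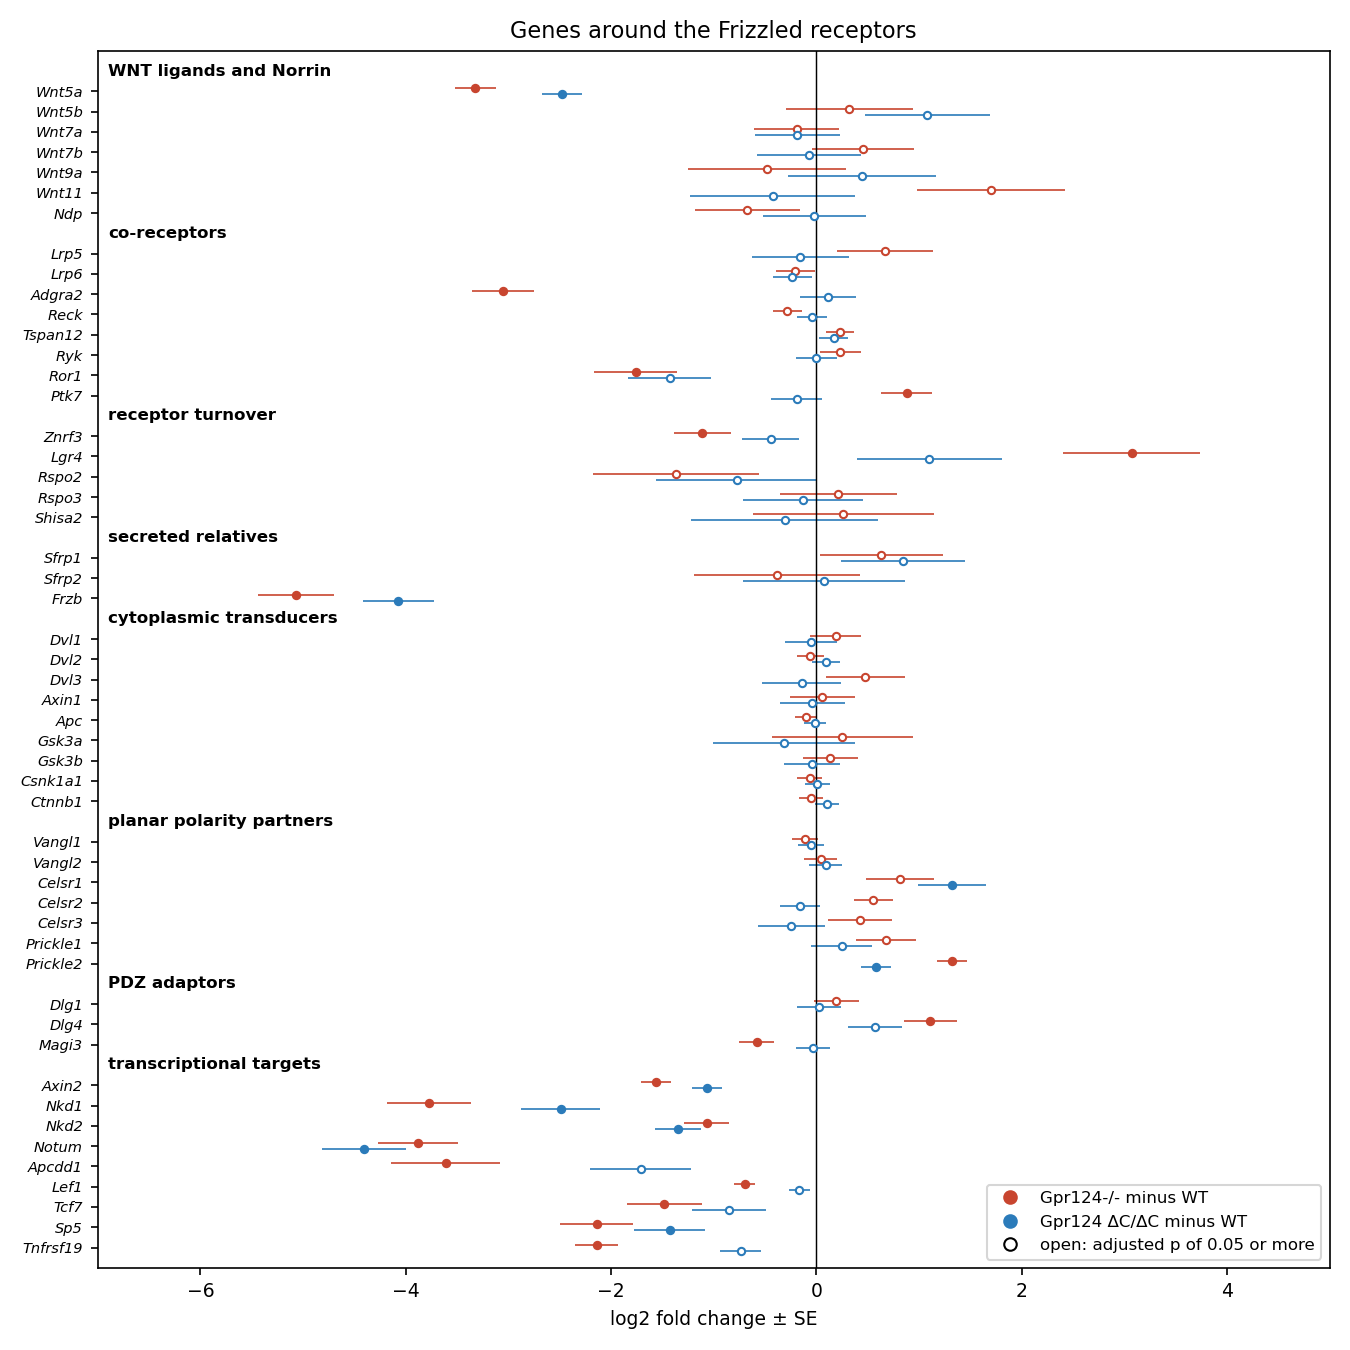
Log2 fold change with its standard error against WT for the tested genes around the Frizzled receptors, by role, in *Gpr124-/-* (red) and *Gpr124 ΔC/ΔC* (blue), with filled marks for an adjusted p under 0.05. The 9 targets are filled and lower in *Gpr124-/-*, and the 9 cytoplasmic transducers are open in both.

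For the 5 members with a mean of at least 8 CPM, the genes most like them were sought by Pearson correlation of log2 CPM over the 12 libraries, among 9989 tested genes of that level. The libraries share genotype, depth and label letter, so these values are descriptions, and in each case the value after removing the genotype means follows. *Fzd6* was most like *Gm4673* (r = 0.977 and 0.693), *Mfsd2a*, the lipid transporter of barrier endothelium (0.972 and 0.614), and *Ptprd* (0.969 and 0.606). *Fzd10* was most like *Plvap*, which forms the diaphragms of leaky vessels (0.982 and 0.944), *Igfbp3* (0.98 and 0.969) and *Fam102a* (0.98 and 0.955). Removing the genotype means leaves the label letter in these values, and *Fzd10* divided by letter (ratio 2.7) where *Fzd6* did not (0.983). *Fzd4* was most like the kinase gene *Jak1* (0.968 and 0.872), *Msn*, which encodes moesin (0.964 and 0.927), and *Kirrel* (0.962 and 0.815). *Fzd1* was most like *Tpst1* (0.944 and 0.875), *Rflnb* (0.929 and 0.904) and *Sox9* (0.926 and 0.867), and *Fzd3* most like *Ect2* and *Ckap2*, both of cell division (0.879 and 0.777, and 0.878 and 0.77), and *Dcp2* (0.875 and 0.828).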

How the data were processed

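RNA from sorted endothelial cells of 12 embryos (4 of each genotype) was extracted with the PicoPure kit, amplified with the SMART-Seq v4 ultra-low input kit, selected for poly(A) and sequenced by Genewiz. Per the labels, reads were converted with bcl2fastq 2.17 and the build was mm10. The aligner, the counting program and the use of strand are not given in the sources used here. The authors deposited unnormalized read counts for 49315 Ensembl genes per library. The authors also deposited TPM, which correct each count for the length of the gene and give every library the same total. Both were used as deposited, and 49056 identifiers had a symbol in GENCODE vM21.

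Counts were fitted in R 4.3.3 with edgeR 4.0.16 (filterByExpr, TMM, glmQLFit and glmQLFTest) in a single model of the 12 libraries with only genotype in it, which kept 16637 genes, and p-values were adjusted by Benjamini-Hochberg over these. A gene passed at an adjusted p under 0.05. Single genes were also compared on TPM by the exact two-sided permutation test over 70 orders. Replicates are separate embryos, and 4 per genotype and 13877572 to 22551163 counted reads per library limit the precision. Coding sequences were read from GENCODE vM21. Alternatives were other scalings and filters, DESeq2 1.42.0, limma 3.58.1 on log2(TPM + 1) and log2(TPM + 0.1), 2 genotypes per fit, the label letter as a term, no erythroid genes and each library left out. TPM without *Gm23935* and the fit of letters J and L were chosen after seeing the data. Tables were made in Python 3.11.15 and plots with matplotlib 3.10.9.

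All *Fzd* genes were named, with *Adgra2*, *Reck*, *Lrp5*, *Lrp6*, *Tspan12*, *Ndp*, *Wnt7a*, *Wnt7b*, up to 4 genes per pathway list with the largest fold change among those that passed in *Gpr124-/-*, and the 3 genes most like each receptor of at least 8 CPM. *Smo*, *Dlg1* and *Celsr1* were named outside this rule, after their values were seen. The members, the pathway lists and the marker lists were chosen with earlier results of these data known.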

Additional observations from a re-analysis of the deposited data

How the results depend on the processing

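The 4 calls in *Gpr124-/-* against WT held in all 12 fits that left out 1 library (2 higher and 2 lower in each). With a term for the label letter, 1 higher and 1 lower receptor passed. In *Gpr124 ΔC/ΔC* against WT, where 1 rose and 0 fell, the number higher was 0 with only the 2 compared genotypes, with limma on log2(TPM + 1) and with limma on log2(TPM + 0.1), and 2 with the letter as a term and in the fit of letters J and L. The number lower was 2 with DESeq2 and in the fit of letters J and L, and 1 with only the 2 genotypes and with the letter as a term. Leaving out single libraries gave 0 to 1 for both numbers. Between the mutants the number higher was 1 without a filter, with DESeq2 and with limma on log2(TPM + 1), against 0, and 0 to 1 with single libraries left out. The number lower was 0 with the letter as a term and 1 in every fit that left out 1 library. On CPM, the number of receptors at the smallest permutation p was 1 in place of 2 in *Gpr124 ΔC/ΔC* against WT and 2 in place of 1 between the mutants. The causes were not tested.

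Directions turned only in receptors that had not passed. In *Gpr124-/-* against WT, the letter term gave log2 fold changes of -0.69 for *Fzd2* and 0.63 for *Fzd5*, and single libraries left out gave -0.018 to 0.40 for *Fzd2* and -0.095 to 0.69 for *Fzd9*. In *Gpr124 ΔC/ΔC* against WT, *Fzd7* was at 0.072 with the letter term and 0.085 with letters J and L only, and single libraries left out gave -0.44 to 0.43 for *Fzd2*, -1.09 to 0.10 for *Fzd7*, -0.61 to 0.046 for *Fzd8* and -0.52 to 0.77 for *Fzd9*. Between the mutants, *Fzd2* was at -0.041 with upper-quartile factors, -0.0022 with only the 2 genotypes and -1.07 with the letter term, *Fzd5* at 1.10 with the letter term, and *Fzd9* at 1.74 with the letter term and 0.35 and 0.53 with limma on log2(TPM + 1) and log2(TPM + 0.1). Single libraries left out gave -0.25 to 0.054 for *Fzd1*, -0.24 to 0.64 for *Fzd2*, -0.30 to 0.51 for *Fzd5* and -0.42 to 0.75 for *Fzd9*. No paired analysis was possible because the labels give no number that pairs single embryos, and the letter, which is shared by sets of embryos across genotypes, entered as a term instead, with the changed calls given above. With a mean of at least 50 counts required, *Fzd2*, *Fzd5* and *Fzd7* were not tested, and few reads limit *Fzd2*, *Fzd5* and *Fzd7* throughout.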
